A study of Mus musculus with 12 samples.

Results

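The hearts compared here were 3 hearts in which Gata4 was deleted and 3 hearts in which Gata6 was deleted, 6 of the 12 hearts of the series, chosen by genotype. Both deletions were made with a cre transgene, so cre was present in all 6 hearts. The remaining 6 hearts served as controls and were 2 Gata4-flox hearts without cre, 2 Gata6-flox hearts without cre and 2 hearts with cre alone and both wild-type Gata genes. All mice were labelled as 8-week adults, and total RNA of the whole heart was hybridised to Affymetrix mouse ST 1.0 arrays, 1 heart per array. The transgene drives cre from a myosin heavy chain promoter, which the labels give as alpha and the study's methods as beta. Deletion was therefore directed to heart muscle cells, and the other cells of the heart were not targeted. The arms also came from separate floxed mouse lines, so a difference between the deleted hearts can belong to the deletion or to the line. For each gene the difference between the uncrossed Gata4-flox and Gata6-flox hearts is given beside the difference between the deleted hearts, and genes whose floxed lines differed by less than 0.25 on the log2 scale are described apart.

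GATA-4 and GATA-6 are zinc finger transcription factors that bind the same short DNA word. In cardiac muscle they act with partners such as NKX2-5, MEF2, TBX5 and the FOG proteins, and both switch on contractile protein and natriuretic peptide genes. Both are made in the embryonic and the adult heart, where each has been linked to hypertrophic growth.

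Values are log2 signals after RMA, a method that corrects background, normalizes between arrays and summarises the probes of a probeset. Array medians lay between 5.61 and 5.66 in all 12 hearts. Pairs of arrays correlated at 0.988 to 0.991 within the Gata4-deleted hearts and at 0.989 to 0.990 within the Gata6-deleted hearts, against 0.981 to 0.988 between the deletions. The Gata4 probeset read 9.25, 9.18 and 9.15 in Gata4-deleted hearts, against 9.15, 9.05 and 9.15 in Gata6-deleted hearts (0.07 ± 0.07, SE, adjusted p = 0.775). The Gata6 probeset read 8.73, 8.82 and 8.86 in Gata4-deleted hearts and 8.98, 9.21 and 9.19 in Gata6-deleted hearts (-0.32 ± 0.11, adjusted p = 0.269). Neither targeted gene was lower in its own deleted hearts than in its floxed line past the threshold, with changes of -0.05 for Gata4 and 0.23 for Gata6. The study's own PCR read Gata4 lower in Gata4-deleted hearts, and it cites earlier work for a loss of each protein. The array is designed over whole transcripts, and the RNA came from tissue that mixes targeted and untargeted cells. What part either had in these readings was not tested, and the probesets are not used here as a check of the deletion. In mixed tissue fewer cells of a type and less RNA per cell cannot be told apart.

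Between the deleted hearts, 384 of 35557 probesets passed an adjusted p of 0.05 (1.08%), with 140 higher (0.394%) and 244 lower (0.686%) in Gata4-deleted hearts. These 384 probesets held 329 different sets of 12 values, because 50 of the lower probesets carried identical numbers and so did 7 probesets of Cwc22. That set of 50, without a gene in the annotation used here, read 5.53, 5.46 and 5.52 in Gata4-deleted hearts, against 7.87, 9.82 and 10.36 in Gata6-deleted hearts. Counted once per gene, 227 of 19938 genes passed (1.14%), 109 higher (0.547%) and 118 lower (0.592%) in Gata4-deleted hearts. Where the floxed lines differed by less than 0.25, 87 of 17271 genes passed (0.504%), 39 higher and 48 lower. Where they differed by 0.25 or more, 140 of 2667 genes passed (5.25%). Floxed differences under 0.25 were found for 78.2% of all probesets but for 109 of the 384 that passed. Probesets with alike lines passed in 0.392% of cases and those with unlike lines in 3.54%, with each identical probeset counted.

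The probesets that passed with alike floxed lines moved by less. Their median size was 0.546 (range 0.273 to 2.05, median SE 0.086), beside a median floxed difference of 0.108. The 275 others had a median size of 0.913, a median SE of 0.127 and a median floxed difference of 0.713. A probeset with a larger SE needs a larger difference to pass. The 275 held 220 different sets of 12 values, because the 50 identical probesets and the 7 of Cwc22 were among them. Each copy is counted in these medians and in the counts by sign. Among those 275, the floxed difference had the same sign in 266, and in 55 it was as large as the difference between the deleted hearts or larger. In the 109 it had the same sign in 80. Just inside the limit of 0.25 were Selenow (floxed difference 0.24), Ddah2 (0.24), Rtn4rl1 (-0.25) and Ints7 (-0.25), and just outside were Ly75 (0.25), Ptprs (-0.26), Klhdc8a (0.26) and Hsd17b11 (0.26). Of the 384, 53 differed between the floxed lines past the threshold. No probeset among the 109 did, which follows largely from their choice by small floxed differences.

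**Figure D1:**
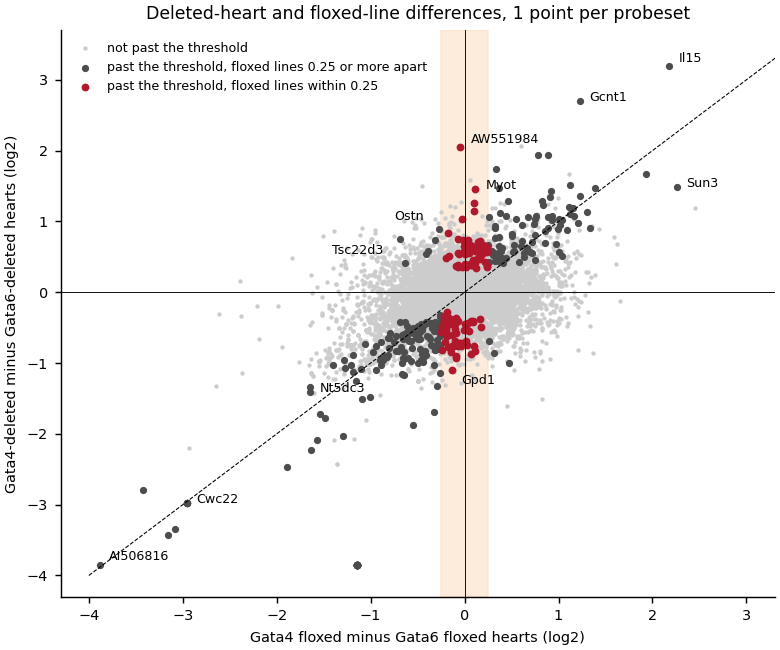
Log2 difference between the deleted hearts (vertical, Gata4-deleted minus Gata6-deleted) against log2 difference between the floxed lines (horizontal, Gata4 floxed minus Gata6 floxed), 1 point per probeset, with the shaded band at floxed differences under 0.25 and the dashed line where both are equal. AI506816 and Cwc22 lie on the dashed line, AW551984, Myot and Gpd1 lie inside the band, and the point near -3.85 and -1.15 stands for the 50 probesets with identical values.

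Of the genes with alike floxed lines, the one with the greatest difference was AW551984, known by the name of an expressed sequence. It read 6.49, 6.77 and 6.50 in Gata4-deleted hearts, against 4.83, 4.50 and 4.27 in Gata6-deleted hearts, and between 4.12 and 4.39 in the 6 control hearts, below the array medians in all but the Gata4-deleted hearts. All 3 Gata4-deleted hearts lay above every other heart, while the Gata6-deleted hearts overlapped the controls. The difference was 2.05 ± 0.15 (SE, n = 3 hearts each as throughout, adjusted p = 0.000343), beside a floxed difference (Gata4 floxed minus Gata6 floxed, n = 2 each) of -0.04. Bhlhb9, a relative of the proteins that sort G protein-coupled receptors, read 7.99, 8.07 and 7.77 in Gata4-deleted hearts and 6.63, 6.88 and 6.56 in Gata6-deleted hearts. It was higher by 1.25 ± 0.11 (adjusted p = 0.00148), with a floxed difference of 0.10. A probeset shared by its family members Gprasp1 and Gprasp2 was also higher, by 0.68 (adjusted p = 0.0085, floxed difference 0.05). Spink4, a secreted inhibitor of serine proteases, read 6.04, 6.72 and 6.32 in Gata4-deleted hearts and 5.12, 5.20 and 5.30 in Gata6-deleted hearts, and the groups did not overlap. Its difference was 1.15 ± 0.16 (adjusted p = 0.00898, floxed difference 0.10).

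Myot, Mybpc1 and Pfn2, genes of muscle structure and of actin, were higher in Gata4-deleted hearts. Myot, which encodes the Z-disc protein myotilin, read 10.97, 10.93 and 10.97 in Gata4-deleted hearts, against 9.54, 9.86 and 9.09 in Gata6-deleted hearts. The 3 Gata4-deleted hearts lay close together, while the Gata6-deleted hearts were spread and 1 of them lay within the control range of 8.41 to 9.39. The difference of 1.46 ± 0.28 had an adjusted p of 0.0472 and a floxed difference of 0.11. Mybpc1, the slow skeletal myosin-binding protein C, averaged 5.62 in Gata4-deleted and 4.98 in Gata6-deleted hearts (0.65 ± 0.11, adjusted p = 0.0285, floxed -0.01). Pfn2, an actin-binding profilin, read 7.99, 8.21 and 8.06 in Gata4-deleted hearts and 7.19, 7.31 and 7.56 in Gata6-deleted hearts. Its floxed hearts, at 7.59 to 7.78, stood between the deletions and its cre-only hearts, at 7.06 and 7.22, stood with the Gata6-deleted hearts, so the place of Pfn2 relative to controls depended on which controls were used. The Pfn2 difference was 0.73 ± 0.11 (adjusted p = 0.0149, floxed 0.04).

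The enzyme genes Gyg, Gsta3, Cat and Tmem189 were also higher. Gyg, the glycogenin on which glycogen chains are started, read 10.70, 10.72 and 10.70 in Gata4-deleted hearts, against 9.86, 10.03 and 9.99 in Gata6-deleted hearts and 9.65 to 9.85 in the 6 controls. Both deletions therefore lay above all controls, Gata4-deleted hearts by more, and the difference between deletions was 0.75 ± 0.07 (adjusted p = 0.00144, floxed -0.07). Gsta3, a glutathione transferase, read 7.23, 7.31 and 7.56 in Gata4-deleted hearts and 6.37, 6.78 and 6.44 in Gata6-deleted hearts, which overlapped the controls. The Gsta3 difference was 0.83 ± 0.14 (adjusted p = 0.025, floxed -0.17). Cat, the catalase that splits hydrogen peroxide, was higher by 0.64 ± 0.08 (adjusted p = 0.00778, floxed 0.24), though this floxed difference sits close to the limit. Cat, Six4, Ankrd10 and the further genes below that are not in the ranked sets of 12 higher and 12 lower were chosen after their values were seen. Tmem189, a desaturase of plasmalogen lipids, was higher by 0.73 ± 0.12 (adjusted p = 0.0194, floxed -0.02).

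Receptors and signalling proteins made up the rest of the 12 highest genes. Avpr1a, the V1a vasopressin receptor, read 6.21, 6.57 and 6.53 in Gata4-deleted hearts, against 5.56, 5.84 and 5.77 in Gata6-deleted hearts. Its difference was 0.71 ± 0.12 (adjusted p = 0.0295, floxed 0.14), and the cre-only hearts, at 6.14 and 5.90, lay between the groups. Ccn2, the connective tissue growth factor, read 9.64, 9.89 and 10.08 in Gata4-deleted hearts and 9.22, 9.23 and 9.14 in Gata6-deleted hearts, with floxed hearts at 8.61 to 8.98. Gata6-deleted hearts thus also lay above both floxed lines but not above the cre-only hearts, at 9.43 and 9.23. The Ccn2 difference was 0.67 ± 0.12 (adjusted p = 0.0286, floxed 0.19). Dok5, an adaptor of receptor tyrosine kinases, was higher by 0.73 ± 0.13 (adjusted p = 0.036, floxed 0.16). A pair of regulators outside the ranked 12 had narrow spreads. The homeobox factor Six4 was higher by 0.55 ± 0.08 (adjusted p = 0.0155, floxed -0.07) and Ankrd10, an ankyrin repeat protein, by 0.56 ± 0.06 (adjusted p = 0.00296, floxed 0.05).

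**Figure D2:**
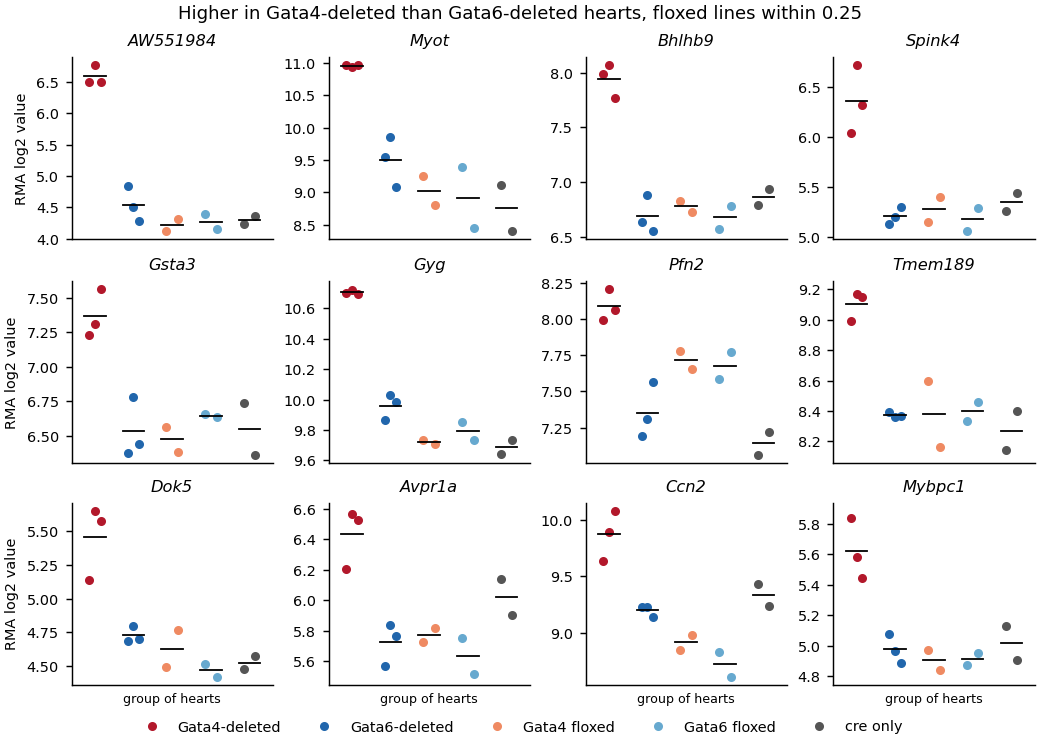
RMA log2 value of every heart (points) and group mean (lines) for the 12 genes with the greatest excess in Gata4-deleted over Gata6-deleted hearts with floxed lines within 0.25. In each panel the 3 Gata4-deleted hearts lie above the 3 Gata6-deleted hearts, and for Gyg the Gata6-deleted hearts also lie above all 6 control hearts.

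Among genes lower in Gata4-deleted hearts with alike floxed lines, Gpd1 came first. Gpd1, the cytosolic enzyme that makes glycerol 3-phosphate, read 7.18, 7.29 and 7.15 in Gata4-deleted hearts, against 8.00, 8.35 and 8.56 in Gata6-deleted hearts and 8.16 to 8.59 in the controls. The Gata4-deleted hearts stood below all others, and the difference was -1.10 ± 0.14 (adjusted p = 0.00778, floxed -0.13). Car14, a membrane carbonic anhydrase, showed the same order with 9.10, 9.22 and 9.19 in Gata4-deleted hearts and 9.72, 10.03 and 10.05 in Gata6-deleted hearts. Car14 was lower by -0.77 ± 0.12 on the log2 scale (adjusted p = 0.0155, floxed -0.03). Eno3, the muscle enolase of glycolysis, read 11.98, 11.95 and 11.97 in Gata4-deleted hearts and 12.30, 12.30 and 12.36 in Gata6-deleted hearts, a small difference (-0.36 ± 0.05, adjusted p = 0.0155, floxed -0.10).

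Fgf16, Pde1c, Drd2, Rtn4rl1, Dpysl3 and Mapk10, genes of signalling and of the cytoskeleton, were lower too. Fgf16, a fibroblast growth factor made by heart muscle, read 6.20, 6.48 and 5.84 in Gata4-deleted hearts, against 6.89, 7.09 and 7.04 in Gata6-deleted hearts and 7.26 to 7.42 in the controls. Both deletions lay below every control heart, and the Gata4-deleted hearts lay lowest, by -0.83 ± 0.14 (adjusted p = 0.0235, floxed 0.11). Pde1c, a calcium-dependent cyclic nucleotide phosphodiesterase, had the same arrangement, with 6.85, 6.92 and 7.04 in Gata4-deleted hearts, 7.60, 7.36 and 7.48 in Gata6-deleted hearts and no control below 7.92. The Pde1c difference was -0.55 ± 0.09 (adjusted p = 0.0182, floxed 0.04). Drd2, the D2 dopamine receptor, read 4.96, 5.29 and 5.41 in Gata4-deleted hearts and 6.08, 5.92 and 6.27 in Gata6-deleted hearts. For Drd2 it was the Gata6-deleted hearts that stood apart, above all controls (5.32 to 5.54), and the difference was -0.87 ± 0.13 (adjusted p = 0.013, floxed 0.06). Rtn4rl1, a relative of the Nogo receptor, and Dpysl3, a cytoskeletal protein of nerve growth cones, likewise had Gata6-deleted hearts above all controls. Rtn4rl1 differed by -0.81 ± 0.10 (adjusted p = 0.00778, floxed -0.25) and Dpysl3 by -0.77 ± 0.14 (adjusted p = 0.0325, floxed -0.17). Mapk10, the JNK3 kinase, read 6.91, 6.92 and 6.93 in Gata4-deleted hearts, against 7.69, 7.75 and 7.55 in Gata6-deleted hearts (-0.74 ± 0.07, adjusted p = 0.00175, floxed -0.09). A dimmer Mapk10 probeset differed by -0.14 and did not pass.

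Trmt5, Rnf207, Strip2 and 3 nuclear proteins, Smarcd1, Cenpa and Irx5, followed. Trmt5, a tRNA methyltransferase, read 7.32, 7.61 and 7.18 in Gata4-deleted hearts and 8.18, 8.36 and 8.36 in Gata6-deleted hearts (-0.93 ± 0.11, adjusted p = 0.00659, floxed -0.09). Rnf207, a RING finger protein of heart muscle, read 7.29, 7.27 and 7.21 in Gata4-deleted hearts, against 8.06, 7.88 and 8.08 in Gata6-deleted hearts, which lay with the controls at 7.99 to 8.20. Its difference was -0.75 ± 0.07 (adjusted p = 0.00196, floxed 0.03). Strip2, a protein of the striatin complex, differed by -0.76 ± 0.10 (adjusted p = 0.00778, floxed -0.11). Smarcd1, a subunit of the SWI/SNF chromatin remodelling complex, differed by -0.54 ± 0.07 (adjusted p = 0.00778), and its floxed difference rounded to 0.00. Cenpa, the histone H3 variant of centromeres, differed by -0.72 ± 0.09 (adjusted p = 0.00778, floxed -0.06). Irx5, a homeobox repressor that shapes the ventricular repolarisation gradient in mice, read 5.83, 5.90 and 5.97 in Gata4-deleted hearts and 6.56, 6.52 and 6.77 in Gata6-deleted hearts. The Irx5 difference was -0.72 ± 0.11 (adjusted p = 0.0195, floxed -0.03), with controls at 6.10 to 6.54 above the Gata4-deleted hearts and overlapping the Gata6-deleted hearts.

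The immune genes Adgre1, Syk, Cxcl9 and Msr1 were also lower in Gata4-deleted hearts. Adgre1, which encodes the macrophage surface protein F4/80, read 6.46, 6.33 and 6.37 in Gata4-deleted hearts, against 7.26, 7.05 and 7.11 in Gata6-deleted hearts and 6.57 to 7.40 in the controls. Its difference was -0.76 ± 0.14 (adjusted p = 0.0404, floxed -0.14). Syk, a kinase of immune receptors, read 6.33, 6.43 and 6.07 in Gata4-deleted hearts and 6.91, 7.21 and 7.22 in Gata6-deleted hearts (-0.84 ± 0.11, adjusted p = 0.00778, floxed -0.15). Cxcl9, an interferon-induced chemokine that attracts T cells, read 4.93, 5.20 and 5.15 in Gata4-deleted hearts and 6.10, 6.03 and 5.86 in Gata6-deleted hearts (-0.90 ± 0.14, adjusted p = 0.0155, floxed -0.09). Msr1, a macrophage scavenger receptor, differed by -0.42 ± 0.07 (adjusted p = 0.0248, floxed 0.09). For all 4 genes the Gata4-deleted hearts lay below every control heart and the Gata6-deleted hearts overlapped the control range.

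**Figure D3:**
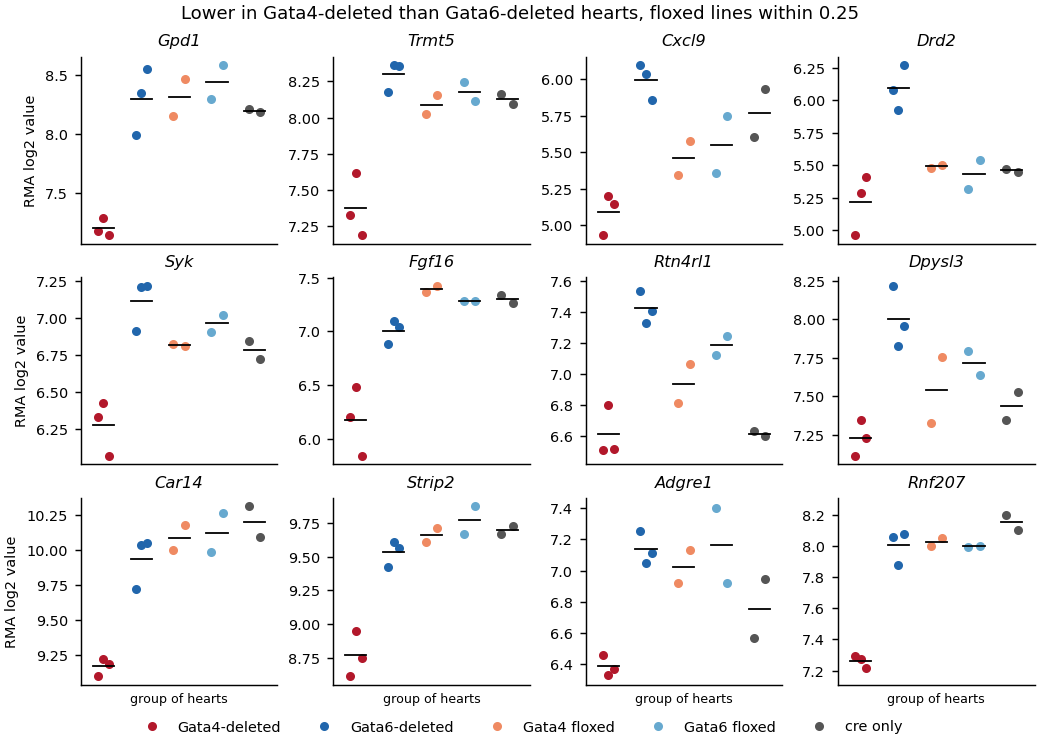
RMA log2 value of every heart (points) and group mean (lines) for the 12 genes with the greatest deficit in Gata4-deleted against Gata6-deleted hearts with floxed lines within 0.25. In each panel the 3 Gata4-deleted hearts lie below the 3 Gata6-deleted hearts, and for Drd2, Rtn4rl1 and Dpysl3 the Gata6-deleted hearts lie above all 6 control hearts.

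Set against all 6 control hearts, the genes with alike floxed lines parted mostly by a shift of the Gata4-deleted hearts. In 81 of the 109 probesets only the Gata4-deleted hearts lay outside the range of the controls, 40 above and 41 below. Only the Gata6-deleted hearts lay outside in 11, both lay outside on opposite sides in 3 and on the same side in 5, and neither in 9. Over all probesets the shares were 5.11% for Gata4-deleted hearts alone and 2.80% for Gata6-deleted hearts alone. The median change from the own floxed line was 0.395 in size in Gata4-deleted and 0.103 in Gata6-deleted hearts, and Gata4-deleted hearts had the larger change in 99 of the 109. Of these probesets 20 passed the test of Gata4-deleted against Gata4 floxed hearts (0.183% of all probesets) and 0 the test of Gata6-deleted against Gata6 floxed hearts (0% of all probesets), both in limma. At an unadjusted p of 0.05 the counts were 93 and 16. The floxed hearts enter the choice of the 109, so these counts describe the set and carry no test.

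A stricter question is whether the change from the own floxed line differed between the deletions. This contrast of 10 hearts passed for 6 of 35557 probesets (0.0169%), for 4 of 19938 genes (0.0201%) and for 1 of the 109, AW551984, with a difference of changes of 2.10 (adjusted p = 0.0423). AW551984 lost this call when any 1 heart was left out except Gata6-deleted heart 1, with adjusted p up to 0.154 (without Gata4 floxed heart 1) and differences of changes between 1.97 and 2.25. The next named gene was Gyg, at 0.82 with an adjusted p of 0.0956. Of the 109, 90 reached an unadjusted p of 0.05 in this contrast, but near-zero floxed differences leave it close to the difference between the deleted hearts. Among genes with alike floxed lines other than AW551984, a difference between the deletions that exceeded the difference between the lines was not shown at this sample size.

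**Figure D4:**
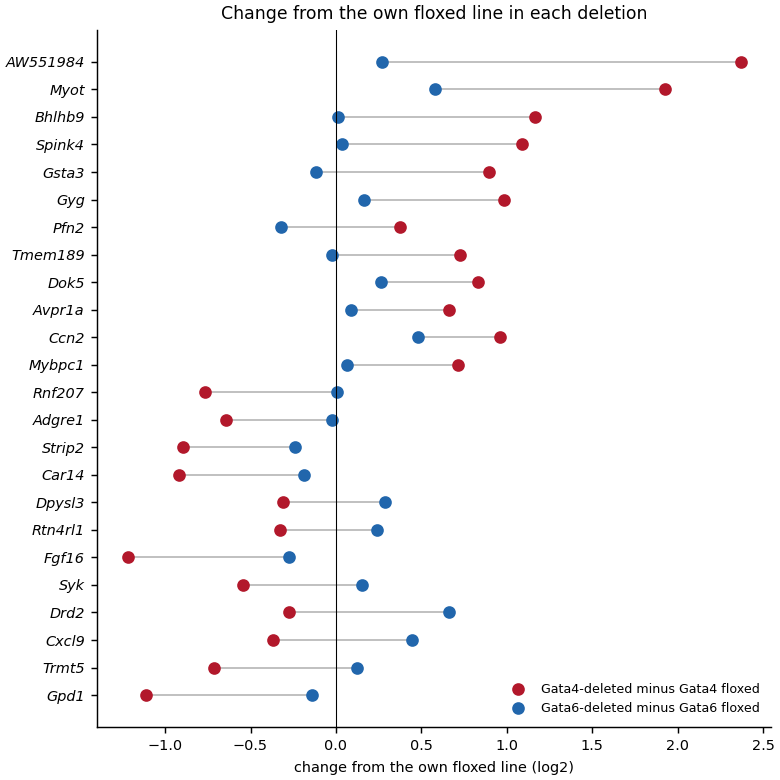
Log2 change of the deleted hearts from their own floxed line for the 12 highest and 12 lowest genes with alike floxed lines, Gata4 deletion in red and Gata6 deletion in blue, in the order of the difference between deleted hearts. Fgf16 moved by -1.22 in Gata4-deleted and -0.28 in Gata6-deleted hearts, while Drd2 moved by -0.27 in Gata4-deleted and 0.66 in Gata6-deleted hearts.

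The word read by both GATA factors was looked for in the 250 bases before the annotated starts, taken from RefSeq on GRCm38.p6, as AGATAA or its 3 variants with T in the first or G in the last place, on either strand. Of the genes with alike floxed lines that were higher in Gata4-deleted hearts, 8 of 28 with a window held a word (28.6%), and of those lower, 6 of 32 (18.8%). The word was in 25.8% of measured genes with a window and in 26.5% of all 32851 windows, so neither share stood far from the background. The windows of Drd2, Gsta3 and Gyg are printed because they show a gene that Gata6-deleted hearts held higher, with a word, and a pair that Gata4-deleted hearts held higher, with and without one. The capitals mark the word. Drd2 lies at chr9:49340153-49340402 on the plus strand, with AGATAG starting 133 bases before the start. Gsta3 lies at chr1:21240335-21240584 on the plus strand, with TTATCT, the word AGATAA on the other strand, starting 95 bases before it. Gyg lies at chr3:20155117-20155366 on the minus strand.
Drd2: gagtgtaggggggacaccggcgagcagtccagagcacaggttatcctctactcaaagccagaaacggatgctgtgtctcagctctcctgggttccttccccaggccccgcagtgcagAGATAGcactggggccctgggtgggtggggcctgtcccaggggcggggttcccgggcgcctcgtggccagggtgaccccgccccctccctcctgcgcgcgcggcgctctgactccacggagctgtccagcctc
Gsta3: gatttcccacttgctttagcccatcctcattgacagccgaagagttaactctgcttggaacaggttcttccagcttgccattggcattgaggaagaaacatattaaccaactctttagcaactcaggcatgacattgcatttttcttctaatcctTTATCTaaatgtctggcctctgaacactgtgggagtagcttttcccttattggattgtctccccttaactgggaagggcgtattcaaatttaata
Gyg: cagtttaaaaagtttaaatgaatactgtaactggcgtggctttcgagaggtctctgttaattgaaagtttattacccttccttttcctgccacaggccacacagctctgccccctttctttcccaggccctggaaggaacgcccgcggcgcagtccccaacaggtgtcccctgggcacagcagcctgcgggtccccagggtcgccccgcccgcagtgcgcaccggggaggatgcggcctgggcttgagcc
A match is a run of letters and not a measured binding site, and these arrays measured no binding.

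Among the 140 genes whose floxed lines differed by 0.25 or more, several of the greatest differences were already present between the lines. AI506816 read 2.65, 3.81 and 3.08 in Gata4-deleted hearts, against 6.73, 6.59 and 7.78 in Gata6-deleted hearts (-3.85 ± 0.35, adjusted p = 0.00144). Its floxed lines differed by -3.88, with cre-only hearts at 3.35 and 3.06. Cwc22, a splicing factor, differed by -2.97 between the deletions and by -2.95 between the lines. Hadh, an enzyme of fatty acid oxidation, differed by -0.79 and -0.81, and Sdhc, a subunit of respiratory complex II, by 0.57 and 0.51. In these genes the deleted hearts kept the level of their own floxed line, and the changes from it did not exceed 0.28 in size. Nt5dc3 differed by -1.34 between the deletions and -1.64 between the lines, and here the cre-only hearts, at 8.78 and 8.72, read like the Gata6 line.

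In other genes of this class the difference between the deletions was larger than that between the lines, but none of the 4 described here passed the contrast of changes, with adjusted p of 0.326 for Neb, 0.512 for Ptgfr, 0.702 for Gcnt1 and 0.797 for Il15. Neb, the giant thin filament protein nebulin, read 8.33, 8.16 and 8.35 in Gata4-deleted hearts, against 6.39, 6.46 and 6.78 in Gata6-deleted hearts and 5.82 to 6.53 in the controls (1.74 ± 0.16, adjusted p = 0.00169, floxed 0.33). Ptgfr, the prostaglandin F receptor, read 7.83, 7.88 and 7.72 in Gata4-deleted hearts and 6.11, 5.65 and 5.84 in Gata6-deleted hearts (1.94 ± 0.17, adjusted p = 0.00144, floxed 0.78). Gcnt1, which branches O-linked sugar chains, read 8.70, 8.71 and 8.80 in Gata4-deleted hearts, against a spread of 6.91, 5.26 and 5.94 in Gata6-deleted hearts (2.70 ± 0.32, adjusted p = 0.00588, floxed 1.23). In all 3 genes the Gata4-deleted hearts lay above every control, though the change of Gcnt1 from its own floxed line did not pass (1.65, adjusted p = 0.132). Il15, a cytokine that sustains natural killer and memory T cells, read 9.12, 9.12 and 8.02 in Gata4-deleted hearts and 5.77, 5.59 and 5.30 in Gata6-deleted hearts (3.20 ± 0.29, adjusted p = 0.00144, floxed 2.18). For Il15 only the Gata6-deleted hearts lay outside the controls, and by little, since the Gata6 floxed hearts were low as well, at 5.91 and 5.94. Similar line differences went with Ifi202b (1.52, floxed 1.12), Car3 (1.68, floxed 1.93), Sun3 (1.48, floxed 2.26) and Epn3 (1.48, floxed 1.38), and with the lower Lgr6 (-1.78, floxed -1.49), Ndufs5 (-2.08, floxed -1.57) and Nxpe4 (-1.48, floxed -1.01). The major histocompatibility class II genes H2-Ea (-2.47, floxed -1.89) and H2-Eb1 (-1.51, floxed -1.09) belonged to the same kind.

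In 9 probesets that passed, the lines differed by 0.25 or more in the opposite direction, and 4 of them carried a single gene. Ostn, a muscle peptide that shields natriuretic peptides from clearance, read 4.93, 4.95 and 4.88 in Gata4-deleted hearts, against 3.81, 4.18 and 4.10 in Gata6-deleted hearts (0.90 ± 0.10, adjusted p = 0.00379, floxed -0.27). Tsc22d3, the glucocorticoid-induced leucine zipper, read 8.22, 8.27 and 8.19 in Gata4-deleted hearts, against 7.83, 7.85 and 7.74 in Gata6-deleted hearts. Gata4 floxed hearts stood at 7.17 and 7.22 and Gata6 floxed hearts at 7.84 and 7.83, so the order of the lines was the reverse (0.42 ± 0.07, adjusted p = 0.0195, floxed -0.64). Rhobtb1 was higher by 0.58 (adjusted p = 0.0286, floxed -0.39) and Klhdc8a, a kelch domain protein, lower by -0.68 (adjusted p = 0.0305, floxed 0.26). In all 4 genes the Gata4-deleted hearts lay outside the range of the controls and the Gata6-deleted hearts did not. Tsc22d3 also passed the contrast of changes, at 1.06 (adjusted p = 0.0423), and kept that call in 1 of the 12 fits that left out a heart.

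By function, the genes of the heart's own regulators and contractile apparatus mostly did not pass. Of 27 GATA factors and cardiac partner transcription factors, 1 was higher and 2 were lower in Gata4-deleted hearts, beside 0.547% and 0.592% of all genes. These were Hey2, a Notch-regulated repressor (0.79, floxed 0.50), the lower Irx5 and Myocd, the coactivator myocardin (-0.75, floxed -0.31). Of 33 sarcomere and Z-disc genes, 2 were higher, Neb and Fhl1, a LIM domain protein (1.12, floxed 0.38), and the median over the list was -0.03 beside 0.01 over all genes. Of 9 natriuretic peptide and receptor genes only Ostn passed. Of 22 ion channel and gap junction genes, Cacna1g, a T-type calcium channel, was higher (1.06, floxed 0.89) and Kcnip2, the subunit of the transient outward potassium channel, was lower (-0.80, floxed -0.27). None of the 21 calcium handling, 18 circadian clock, 20 cell cycle or 16 BCL2 family genes passed in limma, with 8, 8, 3 and 2 of them at an unadjusted p of 0.05. Of all 35557 probesets, 4144 reached that unadjusted level in limma.

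Signalling lists held a few genes each, beside 0.547% higher and 0.592% lower of all genes. Of 16 G protein-coupled receptors, Ptgfr and Avpr1a were higher and Drd2 was lower, and of 14 phosphodiesterases Pde1c was lower. Of 34 angiogenic ligands and receptors, Angpt1, a ligand of the endothelial receptor TIE2 (0.76, floxed 0.32), and Efna5, a membrane-bound ephrin (0.58, floxed 0.11), were higher and Fgf16 was lower, with a list median of -0.02. Of 25 TGF-beta, BMP, CCN and follistatin-like factors 3 were higher, Ccn2, its relative Ccn4 (0.94, floxed 0.33) and Fstl4 (1.08, floxed 0.44). Of 18 TIMPs and matrix proteases only Adamts3, a procollagen-processing protease, was lower, by -0.44 (adjusted p = 0.0491, floxed -0.10), and none of its 15 dimmer probesets passed. Of 22 cytokines and chemokines, Il15 was higher and Cxcl9 lower, and of 22 interferon response and antigen presentation genes H2-Eb1 was lower. Of 23 immediate early genes Ier3 was lower (-0.41, floxed -0.64).

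The glucocorticoid response list had the highest median of the pathway lists that the study did not choose, 0.31 beside 0.01 over all genes, with a floxed median of -0.20. Of its 22 genes, 16 differed upwards, and 11 were higher and 1 lower without overlap. Over all 19938 genes, 10783 differed upwards, and 2087 were higher and 1834 lower without overlap. In this list 13 genes reached an unadjusted p of 0.05 in limma, beside 4144 of all 35557 probesets. Floxed lines were within 0.25 for 8 of the 22. The list held 2 genes that passed, Tsc22d3 and Hsd11b1, the enzyme that regenerates active glucocorticoid (0.59, adjusted p = 0.0443, floxed 0.29). Its summed linear signal was 9452 to 9980 in Gata4-deleted hearts, 7785 to 8401 in Gata6-deleted hearts and 10299.5 to 10892 in cre-only hearts, so the cre-only hearts were highest. Of 28 detoxifying enzymes 3 were higher, Gsta3, Gsta4 (0.58, floxed 0.39) and Cyp2e1 (1.08, floxed 1.17), and 1 was lower, Cyp4b1 (-0.49, floxed -0.27). Of 22 genes of glucose, glycogen and glycerol phosphate metabolism, Gyg was higher and Gpd1 and Pfkfb2, which sets the level of a glycolytic activator, were lower (Pfkfb2 -0.55, floxed -0.29). Of 28 fatty acid genes Hadh was lower, and of 31 respiratory chain genes Sdhc was higher. For the lists of this paragraph, the shares over all genes were 0.547% higher and 0.592% lower. Of 55 measured genes that the study itself names, 14 were higher and 9 lower, 8 and 6 of them with alike floxed lines. The study picked those genes from these same hearts, and the count is therefore no separate support for a direction.

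Markers of the other cell types of the heart were read in the same way. Of 18 macrophage markers 1 passed, Adgre1, yet 17 were lower in Gata4-deleted hearts and 12 did so without overlap, beside 19.7% of all genes without overlap in either direction. The median was -0.31 with a floxed median of 0.14. The summed macrophage signal was 2744 to 2976 in Gata4-deleted hearts, against 3550 to 3638 in Gata6-deleted hearts, and 3210 to 4227 over the control hearts. Syk, Cxcl9 and Msr1 were lower together with these markers, and the part of macrophage number in their differences was not tested. All 6 adipocyte markers were higher in Gata4-deleted hearts without overlap, as were 2087 of all 19938 genes. Of these markers 0 passed, and their median was 0.36 (floxed median 0.28). At an unadjusted p of 0.05 in limma there were 5, beside 4144 of all 35557 probesets. Their summed signal was 244 to 263 in Gata4-deleted hearts and 186 to 204 in Gata6-deleted hearts, with 225 to 253 in Gata4 floxed hearts.

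Of 12 skeletal muscle markers 1 passed, Myot, and the median was 0.04. The other 11 markers, among them the fast myosins and troponins, differed by at most 0.28 in size. The cardiomyocyte list (12 genes, median -0.04), the atrial list (10, -0.15), the endothelial list (14, -0.06), the smooth muscle and pericyte list (12, -0.11) and the fibroblast and matrix list (18, -0.15) held no gene that passed. The lymphocyte (10), red blood cell (2), epicardial and mesothelial (9) and nerve and glia (5) lists also held none. The defining markers of cardiomyocytes had a summed signal of 84487 to 85726 in Gata4-deleted hearts and 86244 to 87829 in Gata6-deleted hearts. The control hearts held 85786.5 to 90156, so the Gata4-deleted hearts were lowest, with the highest of them just under the lowest control. Of these 12 markers, 9 were lower in Gata4-deleted hearts, 4 of them without overlap. Over all 19938 genes, 9155 were lower and 1834 were lower without overlap. At an unadjusted p of 0.05 in limma the cardiomyocyte, atrial, endothelial, smooth muscle and fibroblast lists held 1, 2, 1, 2 and 4 genes. The lymphocyte, red blood cell, epicardial and nerve lists held 2, 0, 2 and 2, and 4144 of all 35557 probesets reached that level.

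**Figure D5:**
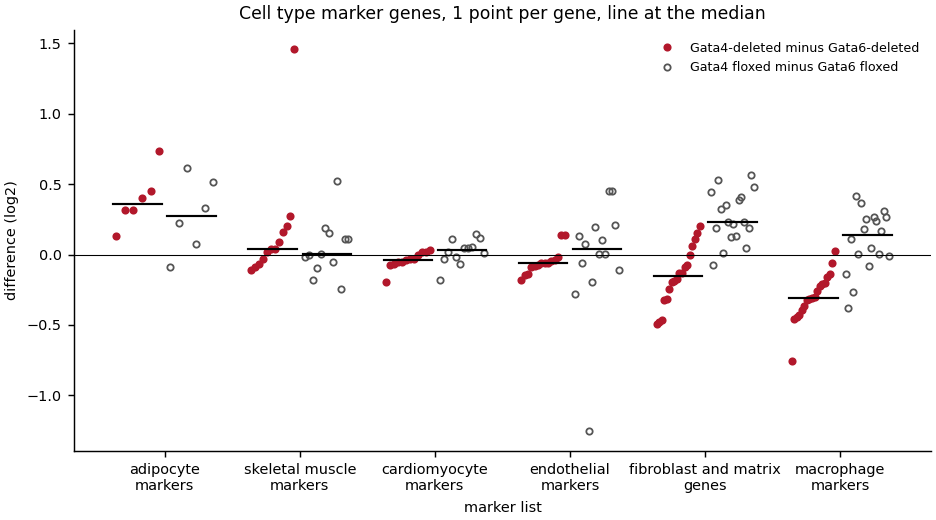
Log2 differences of the marker genes of 6 cell types, 1 point per gene, with filled points for Gata4-deleted minus Gata6-deleted hearts, open points for Gata4 floxed minus Gata6 floxed hearts and lines at the medians. The macrophage points lie below 0 for 17 of 18 genes while the floxed median is 0.14, and Myot stands alone among the skeletal muscle markers.

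Genes next to each other on a chromosome, which a mouse line inherits together, were also compared. Among the 5 measured genes on each side, a neighbour that passed was found for 16 of 87 genes with alike floxed lines (18.4%), for 30 of 140 with unlike lines (21.4%) and for 10.3% of all genes. Adjacent pairs that moved in the same direction were Smarcd1 with Gpd1, Slc35f6 with Cenpa, Macf1 with Ndufs5, Inpp4b with Il15, Srpk2 with AI506816 and Cd59b with Cd59a, while Gyg with Cpa3 and Parp2 with Klhl33 moved in opposite directions. Near the targeted genes themselves, 1 of 20 neighbours of Gata4 passed, beside 1.14% of all genes. It was Fdft1, an enzyme of sterol synthesis (-0.41, floxed 0.07), which passed in 1 of the 6 fits that left out a deleted heart. A dimmer Fdft1 probeset (-0.40, floxed 0.16) did not pass. Of 20 neighbours of Gata6 only Npc1, a cholesterol transporter, passed (0.89), and it differed by 1.09 between the floxed lines. With 25 genes taken on each side, 1 of 50 neighbours of Gata4 and 2 of 50 of Gata6 passed, the added gene being Zfp521.

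With 3 hearts a group, many calls depended on single hearts. When each of the 6 deleted hearts was left out in turn, 150 of the 384 probesets and 17 of the 109 passed every time, while 88 and 43 passed in none. The 150 include the 50 probesets with identical values and the 7 identical probesets of Cwc22, which are copies and not separate calls. All signs of the 109 were kept in each of the 6. AW551984, Bhlhb9, Spink4, Gyg, Gpd1, Trmt5, Syk, Rtn4rl1, Strip2, Rnf207, Mapk10, Cenpa, Smarcd1, Cat and Ankrd10 passed every time, AW551984 at 0.00323 or less. Drd2 passed in 4 of 6, Pfn2, Cxcl9, Fgf16, Car14 and Pde1c in 2, and Gsta3, Tmem189, Dok5, Avpr1a, Ccn2, Mybpc1 and Efna5 in 1. Myot passed in none, with adjusted p between 0.0657 (without Gata6-deleted heart 2) and 0.16 (without Gata6-deleted heart 3), nor did Dpysl3, Adgre1, Irx5, Msr1 and Tsc22d3, whose highest adjusted p lay between 0.0911 (Irx5, without Gata4-deleted heart 1) and 0.144 (Adgre1, without Gata4-deleted heart 3). Eno3 and Adamts3 also passed in none, with highest adjusted p of 0.0741 and 0.184 (Eno3 without Gata6-deleted heart 3, Adamts3 without Gata4-deleted heart 3). Of the genes with unlike lines, Il15, Ptgfr, Neb, Gcnt1, Myocd and Ostn passed every time, while Hadh, Kcnip2, Hsd11b1, H2-Eb1, Klhdc8a, Pfkfb2, Cyp4b1 and Epn3 passed in 1 of 6 and Rhobtb1, Ier3 and Cyp2e1 in none.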

How the data were processed

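Hearts were grouped by the genotype in their labels, 3 Gata4-deleted, 3 Gata6-deleted, 2 Gata4 floxed, 2 Gata6 floxed and 2 cre-only, and none was dropped or imputed. The deposited log2 values were made by the authors with RMA, per the submitters' processing notes, for 35557 probesets; RMA was run before deposit, so background and probe weights could not be changed here. A separate table of relative expression, with 12 columns not tied to single samples, was not used here. A linear model with 1 mean per group was fitted to all 12 arrays with limma 3.58.1 in R 4.3.3, with moderated variances (7 residual and 2.5 prior degrees of freedom) and Benjamini-Hochberg adjustment over all probesets. Genes came from the platform annotation: 21789 probesets had 1 symbol, 1621 several, and a gene was represented by its probeset with the highest mean. Genes named were the 12 highest and 12 lowest with floxed lines within 0.25, the 8 highest and 8 lowest others, all without overlap between the deleted hearts, Gata4, Gata6 and members of the lists. The members and lists were chosen with earlier results of these data known. The labels call the hearts biological replicates. No depth applies to arrays, and their number limits the precision. Alternatives covered scaling, dim probesets, arrays fitted, prior, array weights, probesets per gene, thresholds, the split and each heart left out.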

Additional observations from a re-analysis of the deposited data

Results flagged for a closer look

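The change from the own floxed line differed between the deletions for 4 named genes by the test of that difference. It was 2.10 for AW551984 (adjusted p = 0.0423), where the Gata4-deleted hearts rose by 2.37 from their floxed line and the Gata6-deleted hearts changed by 0.27. It was 1.06 for Tsc22d3 (adjusted p = 0.0423), with changes of 1.03 in Gata4-deleted and -0.02 in Gata6-deleted hearts. Per1 and Ciart, both of the circadian clock and named after their values were seen, had differences of 1.40 (adjusted p = 0.0481) and 1.80 (adjusted p = 0.0423). Per1 averaged 8.23 in Gata4-deleted and 7.94 in Gata6-deleted hearts, without overlap but not past the threshold (0.29, adjusted p = 0.285). Ciart averaged 8.61 in Gata4-deleted and 8.80 in Gata6-deleted hearts, with overlap. The Gata4 floxed hearts were lower, at 6.79 for Per1 against 7.89 in Gata6 floxed hearts, and at 6.94 for Ciart against 8.93. The cre-only hearts averaged 8.19 for Per1 and 8.94 for Ciart. The study's own PCR, relative to floxed hearts, gave the opposite order. There Per1 and Gm129, as the study names Ciart, read higher in Gata6-deleted than in Gata4-deleted hearts. A dimmer Ciart probeset, at -0.29 between the deletions and -1.51 between the lines, did not pass the contrast of changes. All 4 genes lost the call when any heart but Gata6-deleted heart 1 was left out, with adjusted p up to 0.154 for AW551984 and Tsc22d3, 0.229 for Per1 and 0.174 for Ciart. The hour of collection is not given in the sources used here.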

How the results depend on the processing

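The 384 probesets that passed became 601 with dim probesets left out, 623 with array weights, 668 at an adjusted p of 0.10, 151 at 0.01, 98 with only the 6 arrays compared in the fit and 234 with the replicate block. By the methods' t-test 3771 reached an unadjusted p of 0.05 and 0 an adjusted one, where limma had 4144 unadjusted. Leaving out single hearts gave 190 to 408. The 109 with alike floxed lines became 236 (dim probesets left out), 229 (array weights), 175 (trend and robust prior), 203 (mean of the probesets of a gene), 247 (adjusted p of 0.10), 17 (0.01), 66 (size over 0.5), 15 (only the arrays compared) and 43 (replicate block). They became 68 with a floxed limit of 0.15, 196 with 0.50 and 196 when same-sign floxed differences over 0.5 of the size of the other were set apart. The t-test gave 2476 and 0, and leaving out single hearts 28 to 93, with each of the 6 deleted hearts taking both counts down by over 1.5 times (190 to 233, and 28 to 58). The 6 probesets whose changes differed became 2 after quantile normalization, 11 per gene, 0 with only the arrays compared, with the replicate block and at 0.01, and 0 to 63 without single hearts, 63 being without Gata6-deleted heart 1. Of those 12 fits 8 had 0 and 3 had 1. The cause of these shifts was not tested.

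Replicate numbers share no stated source, and deviations of same-numbered deleted hearts correlated between -0.02 and 0.01, so the block was not treated as a pairing. The direction of all gene differences recomputed this way held under every alternative. Myot passed narrowly, at 0.0472, and stood at 0.0522 after median centring and 0.0506 after quantile normalization. The median of all probesets moved by under 0.1 with either scaling. Signals of 3 to 5 on this scale, as for AW551984 in the Gata6-deleted and control hearts, Ostn and AI506816, lie below the array medians. Among others, Spink4 and the Mybpc1 mean in Gata6-deleted hearts, and Drd2 and Cxcl9 in Gata4-deleted hearts, also lay below them.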
